A study of Mus musculus with 19 samples.

Results

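The proteasome was measured here through the transcripts of its subunits in transferred OT-I T cells. Members were the array probe sets whose only gene symbol starts with Psma, Psmb, Psmc, Psmd or Psme. The rule found 42 of the 8251 genes with a symbol of their own, in 53 of 10833 such probe sets. They comprised 7 alpha and 7 constitutive beta subunits of the 20S core, 4 genes of the immunoproteasome (Psmb8, Psmb9, Psmb10 and Psme1), 6 ATPases and 14 non-ATPase Psmd genes of the 19S cap, and the activators Psme3 and Psme4. Of the 14 Psmd genes, Psmd5, Psmd9 and Psmd10 encode assembly chaperones of the cap and not subunits of the finished particle, and they are counted with the cap by their names. The remaining 2, Psmc3ip and Psme3ip1, share a prefix with the family but are named for interacting with a subunit and are not subunits themselves. Psme2 is not described, because its 2 probe sets carry several symbols. After a filter on low signals, 40 of the 42 genes were tested, in 47 probe sets. Psmc4 and Psmc3ip lay under the filter, with a mean signal of 18.3 for Psmc4 against a filter level of 26.4.

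OT-I cells are CD8 T cells with a transgenic receptor for an ovalbumin peptide, and 19 samples of total RNA from such cells were hybridised. After transfer into B6 mice that had been irradiated, cells were taken from lymph node or spleen at the times titled day 5 (n = 8), day 40 (n = 4) and day 115 (n = 3). Cells transferred into B6 mice that had not been irradiated served as the reference (n = 4) and were sorted at day 6, which the descriptions also give for the day-5 samples. For the first pair of day-5 arrays the description gives no cell type. Since no unirradiated group was taken at day 40 or day 115, irradiation and time after transfer cannot be told apart there. Nothing in the labels says that samples came from separate animals, so the p-values below measure the spread between samples, which may in part be technical.

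The proteasome is the cell's main machine for degrading proteins tagged with ubiquitin. Its 20S core is a barrel of stacked rings, with outer alpha rings that gate the entry and inner beta rings that hold the proteolytic sites. The 19S cap binds ubiquitin chains, removes them and unfolds the substrate with its ring of ATPases. In lymphocytes and in cells that received interferon, the catalytic subunits Psmb6, Psmb7 and Psmb5 can be replaced by Psmb9, Psmb10 and Psmb8, which gives the immunoproteasome, whose products favour loading onto MHC class I. Psme1 and Psme2 form the PA28 activator, which docks on the ends of the core in place of the cap. Proteasome genes are often transcribed together, and dividing cells have a high demand for protein turnover.

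The arrays fell into a pair of clusters that cut across the groups, and many of these transcripts differed between them. In array cluster 1 were the day-115 arrays, arrays 1 and 2 of day 40 and arrays 1 to 3 of day 5. In array cluster 2 were the unirradiated arrays, arrays 3 and 4 of day 40 and arrays 4 to 8 of day 5. Arrays of the same group in different clusters correlated less well (median r = 0.930) than arrays of different groups within a cluster (median r = 0.977). A comparison of day 115 with unirradiated hosts therefore also compares the clusters, and group and cluster cannot be told apart there except through an additive term that rests on the day-5 and day-40 arrays. Unirradiated array 2 stood apart too: its median proteasome gene lay 0.30 above the group mean on the log2 scale, and the lowest unirradiated array lay at -0.15. Array medians over all probe sets ranged from 49.6 to 53.7 signal units. The co-receptor gene Cd8a, the marker of CD8 T cells, was bright in every group, with mean signals of 2533 ± 250 (SD, n = 4) in unirradiated hosts, 2940 ± 818 (n = 8) at day 5, 2567 ± 515 (n = 4) at day 40 and 2079 ± 188 (n = 3) at day 115. It is 1 of 9 tested CD8 T cell genes, of which 8, 7 and 6 lay higher than in unirradiated hosts at day 5, day 40 and day 115. At day 115 Thy1 (1.08, adjusted p = 0.00366 in limma) and Cd2 (1.33, adjusted p = 0.00249) rose, and Cd8a differed by -0.28 (adjusted p = 0.418). Within cluster 2, Cd8a was called higher at day 5 than in unirradiated hosts (0.47 on the log2 scale, adjusted p = 0.0314 in limma), with means of 3511 and 2533. On the day-5 arrays of cluster 2, the median over the 9 CD8 T cell genes lay between -0.17 and 0.37 from the unirradiated mean. The part of this in the proteasome results was not tested.

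Most proteasome genes stood higher at day 5 than in unirradiated hosts, though none passed the test alone. The median of the 40 log2 differences was 0.33, against 0.03 for all 8695 tested probe sets, with values taken as log2(signal + 16) here and below. Of the 40 genes, 31 lay higher (77.5%), against 57.3% of all tested probe sets. By limma, 0 of 40 genes had an adjusted p under 0.05, and 0.794% of all tested probe sets did. An unadjusted p under 0.05 was found for 17 of the 40 (42.5%), against 13.5% of all tested probe sets. The 20S core had a median difference of 0.43 with 13 of 14 genes higher, the immunoproteasome 0.51 with 4 of 4, and the 19S cap 0.19 with 13 of 19. Both other activators, Psme3 and Psme4, lay lower, at -0.45 each. These genes were measured on the same arrays and are not independent of each other, so their shares are descriptions and not tests.

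Within array cluster 2, which holds 5 day-5 and 4 unirradiated arrays, the same comparison had less spread. There 35 of 40 genes lay higher, with a median of 0.32, while the median of all tested probe sets was -0.01 and 46.5% of them lay higher. All 14 genes of the 20S core lay higher, with a median of 0.46. The alpha subunit Psma1 (0.65 ± 0.14, log2 ± SE, adjusted p = 0.0354 in limma) and the ATPase Psmc5 (0.60 ± 0.13, adjusted p = 0.0373) rose, that is 2 of 40 genes against 2.38% of all tested probe sets. All 5 day-5 arrays lay above all 4 unirradiated arrays for 6 genes, Psma1, Psma3, Psma6, Psmc2, Psmc5 and Psmd6, as they did for 3.42% of tested probe sets. With the cluster as a term over all arrays, Psmc5 rose alone (0.59 ± 0.12, adjusted p = 0.0125), 1 of 40 against 1.61%.

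**Figure D1:**
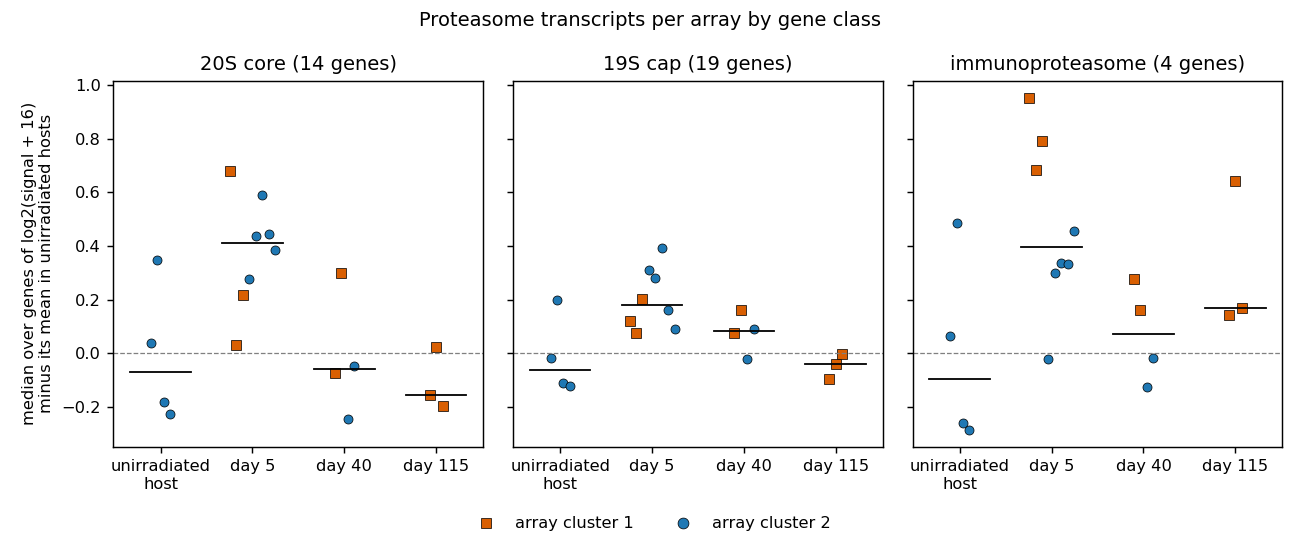
Median over genes of log2(signal + 16) minus the mean of the unirradiated arrays, per array, for the 20S core (14 genes), the 19S cap (19 genes) and the immunoproteasome (4 genes); squares are arrays of cluster 1, circles those of cluster 2, and the line is the group's median. For the 20S core the day-5 arrays lie between 0.03 and 0.68 and the unirradiated arrays between -0.23 and 0.35, so the groups overlap.

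Array by array, the median 20S core gene lay between 0.03 and 0.68 above the unirradiated mean at day 5. It lay between 0.28 and 0.59 on the day-5 arrays of cluster 2. Unirradiated arrays 1, 3 and 4 lay at 0.04, -0.18 and -0.23, and array 2 at 0.35, within the range of the day-5 arrays. Without unirradiated array 2 the median difference over the 40 genes became 0.41, and without unirradiated array 4 it became 0.27, the extremes of leaving out any 1 array. Both lay above the median over all tested probe sets. In bulk RNA of this kind, a change in the share of cells that hold a transcript and a change in the amount per cell cannot be told apart.

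The shift of the median was small in the later groups, while single genes differed in both directions. The median over the 40 genes at day 40 was 0.03 above unirradiated hosts with 22 genes higher, and 0 of 40 were called by limma against 1.5% of all tested probe sets (6 of 40 at an unadjusted p under 0.05, or 15%, against 15.3% of all tested probe sets). At day 115 the median was -0.03 with 20 genes higher and 20 lower. The differences there ran from -2.48 to 1.48, against -0.45 to 0.86 at day 5. With the array cluster as a term these ranges were -0.86 to 0.93 and -0.41 to 0.75. Over all tested probe sets, without the term, differences ran from -3.65 to 4.00 at day 115 and from -1.79 to 2.80 at day 5. The median over the 4 immunoproteasome genes was 0.35 at day 115 and 0.16 at day 40. With the cluster term these medians were -0.09 and -0.11, and within cluster 2 the day-40 median was -0.07. Against day 5, 32 of 40 genes lay lower at day 40 with a median of -0.30, where all tested probe sets had a median of -0.0034. The 14 genes of the 20S core and the 4 of the immunoproteasome all lay lower, with medians of -0.40 and -0.35, and 13 of 19 of the 19S cap. By limma, 0 of 40 were called there against 1.25% of all tested probe sets, and 9 of 40 had an unadjusted p under 0.05 (22.5% against 12.1%); leaving out day-5 array 2, day-5 array 3 or day-40 array 2 gave 1 called gene. The comparisons of day 5 with unirradiated hosts and of day 40 with day 5 share the day-5 arrays, so they are not independent of each other.

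With the array cluster as a term, 4 genes fell from day 5 to day 40, where 7.48% of all tested probe sets were called and 2.33% were called lower. They were Psma1 (-0.68 ± 0.16, adjusted p = 0.0156), Psmb5 (-0.94, adjusted p = 0.0397), Psmb7 (-0.73, adjusted p = 0.00325) and Psmd8 (-0.52 ± 0.11, adjusted p = 0.00647), all by limma. Within cluster 2, with 2 day-40 arrays, 6 genes fell against 5.66% of tested probe sets called and 2.04% called lower. These were Psma1, Psma3, Psma5, Psmb2, Psmb7 and Psmd8, with differences from -0.55 to -0.85. Both day-40 arrays lay below all 5 day-5 arrays for 18 genes, as for 10.2% of all tested probe sets. The 18 included 11 of 14 genes of the 20S core, all except Psma4, Psmb1 and Psmb3. Within cluster 1, where 2 day-40 and 3 day-5 arrays lie, 28 of 40 genes lay lower (70%) with a median of -0.13, against 54.7% of all tested probe sets with a median of -0.02, and limma called 0 of 40 against 0.0115% of all tested probe sets.

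**Figure D2:**
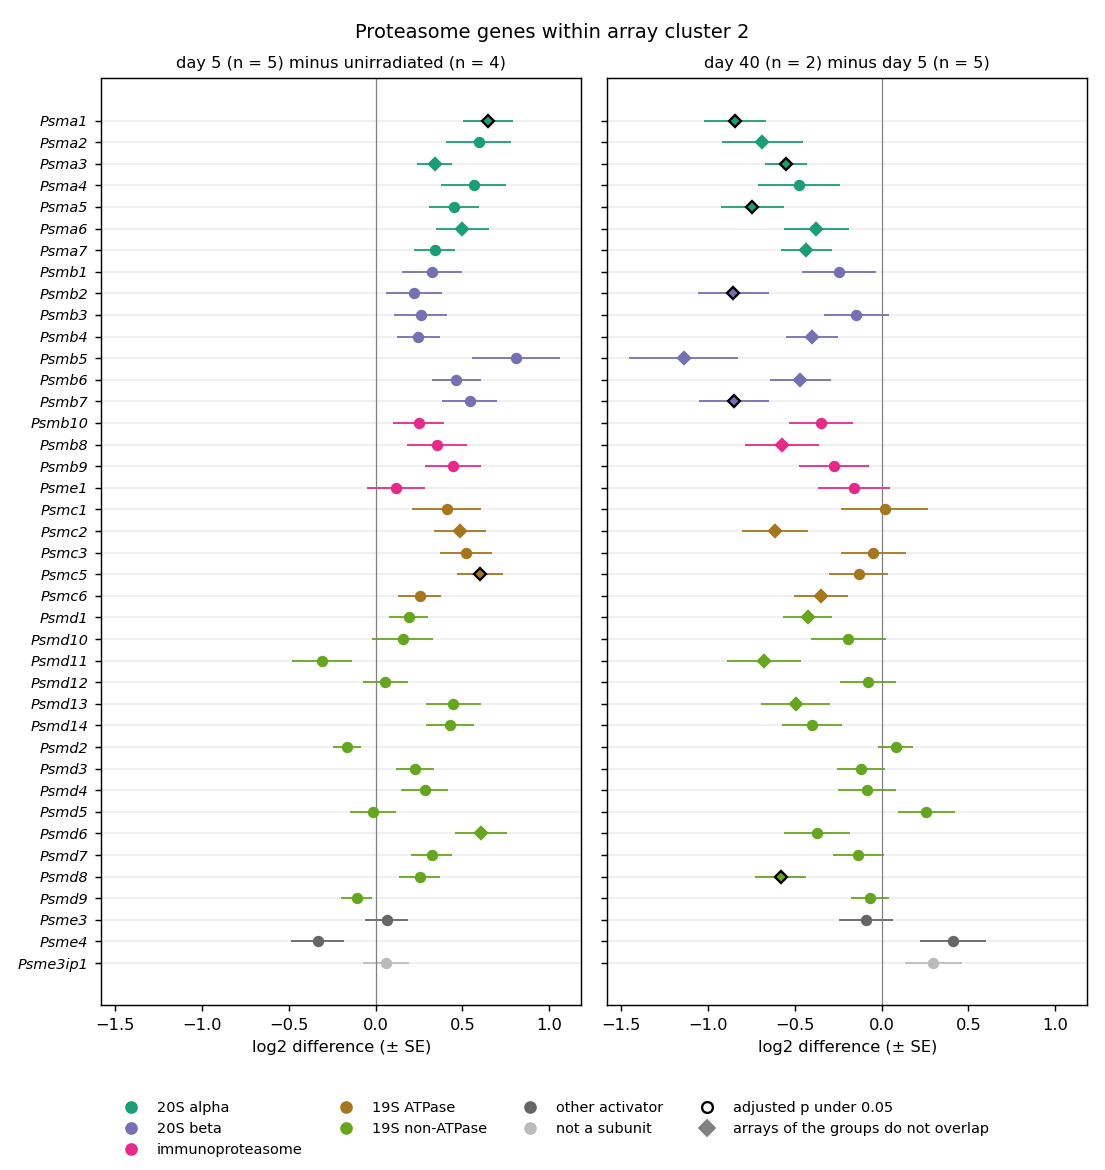
Log2 difference with its standard error for each of the 40 tested genes within array cluster 2, for day 5 minus unirradiated hosts (5 and 4 arrays) and day 40 minus day 5 (2 and 5 arrays); a ring marks an adjusted p under 0.05 in limma and a diamond marks genes whose arrays do not overlap. All 14 genes of the 20S core lie above 0 in the first comparison.

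The day-115 comparison with unirradiated hosts had the most calls among proteasome genes, at a share near that of all tested probe sets. Against unirradiated hosts 11 of 40 genes passed the limma test, 5 higher and 6 lower, where 27.9% of all tested probe sets passed, 15.1% higher and 12.8% lower. The genes that rose were Psmc3, Psmd3, Psmd4, Psmd7 and Psme3ip1, and those that fell were Psma1, Psma3, Psmc6, Psmd6, Psmd11 and Psme3. With the cluster as a term 0 of these passed, where 4.42% of all tested probe sets did, and 8 of 40 had an unadjusted p under 0.05, which at 20% was near the 22.3% of all tested probe sets. All day-115 arrays lay above all unirradiated arrays for 9 of the 40 genes and below them for 10. These shares were near the 21.7% and 21% of all tested probe sets.

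The number of calls depended on single arrays. Shares of all tested probe sets are not given for fits that leave out an array, here or elsewhere. It was 3 without day-115 array 2, 6 without array 3, 8 without array 1, and 7 without unirradiated array 1 or 4. Psmc3, Psmc6 and Psmd7 passed whichever of the 7 arrays was left out. Psmd4 lost its call without day-115 array 2 (adjusted p = 0.0571), and Psmd3 without that array or unirradiated array 2 (up to 0.0763). The others were lost in at least 3 of the 7 fits, with adjusted p up to 0.0868 for Psma1, 0.0793 for Psma3, 0.0674 for Psmd11, 0.124 for Psme3ip1, 0.094 for Psme3 and 0.186 for Psmd6.

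Markers of other cell types differed at day 115 in both directions beside these results, and their part in them was not tested. Of all tested probe sets, 15.1% rose there and 12.8% fell. The summed signal of the 4 tested plasma cell genes was 881 to 1185 at day 115 against 195 to 272 in unirradiated hosts, and 2 of the 4 rose. That of the 2 tested genes of hepatic RNA was 76.2 to 721 against 59.0 to 70.4, and both rose. Of 13 myeloid and dendritic genes, 5 rose and 1 fell, while their summed signal was 2038 to 4022 against 3028 to 3818. Of 6 erythroid genes 1 rose, of 5 genes of stroma and vessels 1 fell, and the 1 tested NK cell gene fell by 0.85 on the log2 scale. Of 7 B cell genes and 8 neutrophil genes none was called. When the cluster was a term, 2 plasma cell genes and 1 gene of hepatic RNA were called, and 0 myeloid, erythroid, stroma or NK cell genes. With that term 4.42% of all tested probe sets were called. In the comparisons of day 5 and day 40 with unirradiated hosts no gene of these marker lists was called, but summed signals differed there too. The plasma cell sum was 204 to 386 at day 5 and 283 to 815 at day 40, the latter above every unirradiated array. The erythroid sum was 341 to 2638 at day 5 and 475 to 1114 at day 40, against 307 to 483 in unirradiated hosts. Signals of the NK cell gene were 588 to 1419 and 700 to 941, against 781 to 1422.

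From day 5 to day 115, 6 of 40 genes were called and all of them fell, where 13.9% of all tested probe sets were called and 5.62% fell. They were Psma1, Psma5, Psmb7, Psmc5, Psmc6 and Psmd6. With the cluster term 7 fell, against 14.3% called and 7.1% lower: Psma1, Psma5, Psma7, Psmc6, Psmd6, Psmd8 and Psmd9. Psmb7 (-0.31, adjusted p = 0.214) and Psmc5 (-0.27, adjusted p = 0.204) no longer passed. Within cluster 1, 3 against 3 arrays, 0 of 40 were called against 1.28% of all tested probe sets, and 12 genes lay lower on every day-115 array against 14.7%. Psma1, Psmc6 and Psmd6 passed whichever of the 11 arrays was left out. The count over the 40 genes was 3 without day-5 array 5 or 6 or day-115 array 2 or 3, 4 without day-5 array 4, 7 or 8 or day-115 array 1, and 9 to 11 without day-5 array 1, 2 or 3. Day 115 and day 40 differed in 0 of 40 genes by limma, against 0.092% of all tested probe sets, with 4 of 40 at an unadjusted p under 0.05 (10% against 13.5%). Leaving out day-40 array 1 gave 2 called genes.

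**Figure D3:**
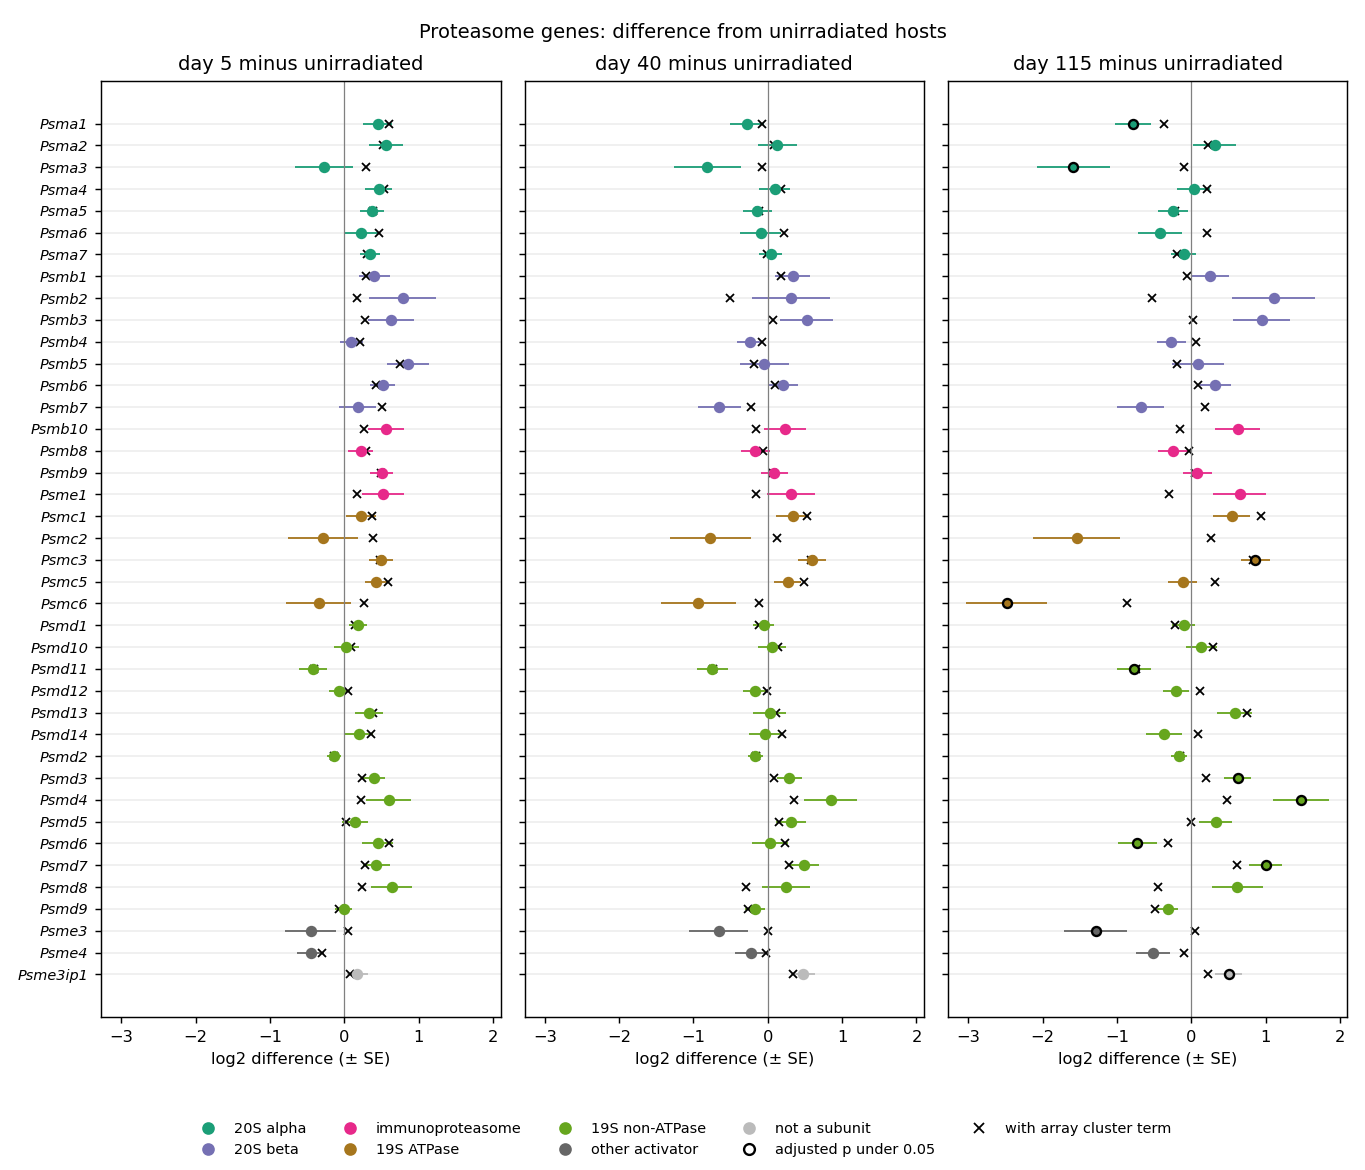
Log2 difference from unirradiated hosts with its standard error for the 40 tested genes by class, at day 5, day 40 and day 115; a ring marks an adjusted p under 0.05 in limma and a cross is the difference with the array cluster as a term. At day 5 the points of the 20S core and immunoproteasome lie mostly above 0 with no ring, and 11 genes carry a ring at day 115.

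The alpha subunits form the outer rings and the gate of the core, and Psma1 was the alpha subunit with the most calls. Its signals were 210.3, 242, 152 and 181 in unirradiated hosts, 163 to 371 with a median of 282.5 at day 5, 118, 182, 157 and 177 at day 40, and 120.0, 89.8 and 111 at day 115. All day-115 arrays lay below every other array except day-40 array 1, which lay among them. Against unirradiated hosts Psma1 fell by 0.78 ± 0.24 on the log2 scale at day 115 (adjusted p = 0.0238 in limma), and against day 5 it fell by 1.23 ± 0.21 (adjusted p = 0.00168). These differences were -0.37 (adjusted p = 0.398) and -0.97 ± 0.20 (adjusted p = 0.00512) when the cluster was a term.

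Psma1 and Psmb5, a catalytic beta subunit, were among the core genes called on day 40 against day 5 with the cluster term, and Psmb8 and Psmb9 are 2 of the catalytic immunoproteasome subunits. Their upstream sequences are shown so that the letters bound by known regulators of proteasome and interferon genes can be seen. Each is the 250 bases before the annotated start of the gene in RefSeq (GRCm38.p6), 5′ to 3′ on the gene's own strand, with motif matches in capitals. The Psma1 window is chr7:114276117-114276366 on the minus strand, that of Psmb5 chr14:54617996-54618245 on the minus strand, that of Psmb8 chr17:34197945-34198194 on the plus strand, and that of Psmb9 chr17:34187331-34187580 on the minus strand. Psmb8 and Psmb9 lie in the MHC region, beside the peptide transporter genes.
Psma1: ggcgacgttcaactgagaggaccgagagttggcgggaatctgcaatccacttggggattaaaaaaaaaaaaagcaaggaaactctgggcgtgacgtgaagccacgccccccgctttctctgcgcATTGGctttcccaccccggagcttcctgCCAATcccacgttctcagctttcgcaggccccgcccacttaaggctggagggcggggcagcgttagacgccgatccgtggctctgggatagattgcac
Psmb5: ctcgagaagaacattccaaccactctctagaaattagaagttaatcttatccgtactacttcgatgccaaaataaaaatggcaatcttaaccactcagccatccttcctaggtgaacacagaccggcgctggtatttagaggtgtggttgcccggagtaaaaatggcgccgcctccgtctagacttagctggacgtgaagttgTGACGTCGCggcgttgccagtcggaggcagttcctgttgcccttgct
Psmb8: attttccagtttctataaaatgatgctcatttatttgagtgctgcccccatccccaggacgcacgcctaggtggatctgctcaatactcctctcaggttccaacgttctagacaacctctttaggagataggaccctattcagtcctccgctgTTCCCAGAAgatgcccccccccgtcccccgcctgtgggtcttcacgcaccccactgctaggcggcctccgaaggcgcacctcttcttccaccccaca
Psmb9: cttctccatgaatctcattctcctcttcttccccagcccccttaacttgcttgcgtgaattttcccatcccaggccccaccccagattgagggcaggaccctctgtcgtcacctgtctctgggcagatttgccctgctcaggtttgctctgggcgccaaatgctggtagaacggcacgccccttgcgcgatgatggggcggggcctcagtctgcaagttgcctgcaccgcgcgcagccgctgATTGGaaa

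In these windows the capitals mark CCAAT, the letters bound by the factor NF-Y, which reads ATTGG on the other strand, once in each direction for Psma1 and on the other strand for Psmb9. For Psmb5 they mark TGACNNNGC, the core of the antioxidant response element read by NRF factors, and for Psmb8 TTCNNNGAA, the core of a STAT site. The fourth motif searched was TTTC, any 2 bases and TTTC again, the core of an interferon-stimulated response element, and no match in the 4 printed windows overlapped a match of another motif. Both strands were searched in the windows of 36 of the 42 members. CCAAT was present for 15 of 36 (41.7%) against 37.5% of 27025 genes. By class it was present for 5 of 7 alpha subunits, 1 of 4 constitutive beta subunits and 1 of 4 immunoproteasome genes. It was also present for 2 of 5 ATPases, 3 of 12 non-ATPase genes of the cap, 1 of 2 other activators and 2 of 2 genes that are not subunits. TGACNNNGC was present for 5 of 36 (13.9%; Psmb5, Psmb6, Psmc6, Psmd9 and Psmd12) against 11.5%. That interferon element core matched 3 of 36 (8.33%; Psmb3, Psmd4 and Psmd9) against 3.46%, and 0 of 4 immunoproteasome genes. TTCNNNGAA matched Psmb8 alone, 1 of 36 (2.78%) against 8.13%. A match describes the letters of the window and shows no binding.

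Psma3, another alpha subunit, lay lower in cluster 1 in both groups that were split between the clusters. Unirradiated arrays had signals of 2586, 2636, 2446 and 2726. At day 5 the 3 arrays of cluster 1 had 1350.1, 946 and 898, and the 5 of cluster 2 lay between 2878 and 3800, with no overlap. Day-40 signals were 736 and 1251 in cluster 1 and 2179 and 2306 in cluster 2, and at day 115 they were 950.3, 929 and 709. At day 115 Psma3 fell by 1.58 ± 0.49 against unirradiated hosts (adjusted p = 0.0235 in limma), and the difference was -0.10 ± 0.23 when the cluster was a term. Within cluster 2, from day 5 to day 40, it fell by 0.55 ± 0.12 (adjusted p = 0.0254). Its probe set may share sequence with other transcripts by its name, so the gene assignment is uncertain.

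From day 5 to day 115 Psma5 fell by 0.62 ± 0.18 (adjusted p = 0.0318 in limma), and it fell by 0.60 with the cluster term (adjusted p = 0.0468). Signals at day 115 were 404, 373 and 396, below every day-5 array, which ran from 459.5 to 780.0. The unirradiated arrays, at 490.4, 618, 398 and 388, overlapped both groups. Leaving out day-5 array 5 or 6 or any day-115 array ended the call without the term (adjusted p up to 0.104).

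Psma7 had signals of 301, 186 and 219.8 at day 115 and of 267 to 355 at day 5, which overlapped. The difference was -0.50 with the cluster term (adjusted p = 0.0392 in limma). Psma2 and Psma4 had the largest day-5 differences of the class, 0.55 and 0.46, and neither passed. For Psma2 the signals at day 5 ran from 616 to 1621 and those of unirradiated hosts from 495 to 1001. Psma6 ran from 654 to 1550.3 at day 5, and the 3 lowest of these were the arrays of cluster 1.

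The constitutive beta subunits all lay higher at day 5 than in unirradiated hosts, 7 of 7, with a median log2 difference of 0.52. Psmb6, the caspase-like subunit, had signals of 199, 277, 208 and 213 in unirradiated hosts and of 256 to 420.1 with a median of 316 at day 5. At day 40 it had 285, 323, 211 and 234, and at day 115 204, 345 and 319.6. Only unirradiated array 2 reached into the range of day 5, and the difference of 0.52 did not pass (adjusted p = 0.194 in limma).

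Psmb5, the chymotrypsin-like subunit, had the largest day-5 difference of the class, 0.86 (adjusted p = 0.200). Unirradiated arrays had 99.9, 218, 69.4 and 89.0, and the day-5 arrays 141 to 322 with a median of 206. Day-40 signals were 82.9, 204, 69.8 and 98.7, and at day 115 92.5, 199 and 84.5. In each of the 3 smaller groups array 2 stood high, within the day-5 range, and the other arrays lay below every day-5 array. This probe set may share sequence with another transcript by its name, and the other tested Psmb5 probe set differed by -0.10 at day 5. From day 5 to day 40 that other probe set differed by -0.26 within cluster 1 and by 0.16 within cluster 2. The brightest differed there by -0.70 and -1.14, so the probe sets did not share a direction within cluster 2.

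Psmb7, the trypsin-like subunit, lay below every unirradiated array at day 40 and at day 115. Its signals were 237, 248, 224 and 225 in unirradiated hosts, 96.2, 123, 154 and 222 at day 40, and 134, 147 and 139.8 at day 115. Day-5 arrays of cluster 1 had 191, 159.8 and 160.5, and those of cluster 2 had 235 to 410.2. From day 5 to day 115 Psmb7 fell by 0.86 ± 0.28 (adjusted p = 0.0472 in limma), and the call was lost without any array of cluster 2 at day 5 or any day-115 array (adjusted p up to 0.119). Within cluster 2, from day 5 to day 40, it fell by 0.85 (adjusted p = 0.0302). By name this probe set too may share sequence with other transcripts.

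Psmb2 and Psmb3, structural beta subunits, were higher in cluster 1 in both groups that were split between the clusters. Psmb2 had 1198, 432 and 465 on the day-5 arrays of cluster 1 and 161 to 249.6 on those of cluster 2. At day 40 it had 475 and 418 in cluster 1 and 114 and 103 in cluster 2. Psmb2 lay at 397, 374 and 432 at day 115 and at 149.8, 267, 162 and 151 in unirradiated hosts, a difference of 1.11 that did not pass (adjusted p = 0.145 in limma) and that was -0.53 with the cluster term. Psmb3 differed by 0.95 at day 115 (adjusted p = 0.0757) and by 0.03 with the term. Psmb1 and Psmb4 had no call in any comparison, and the 2 tested Psmb1 probe sets differed at day 5 by 0.40 and -0.07.

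**Figure D4:**
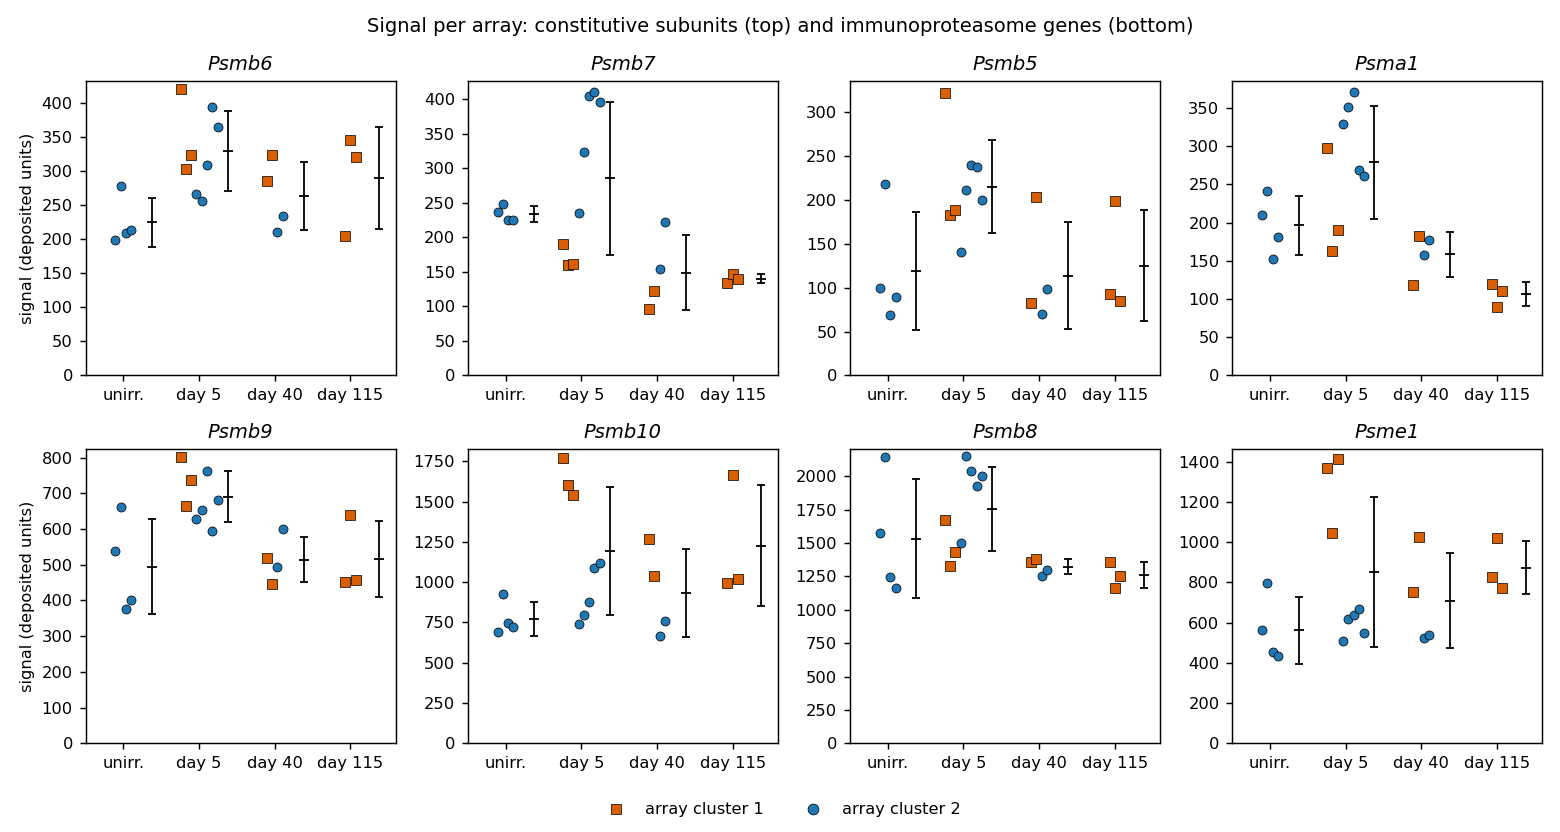
Signal per array of Psmb6, Psmb7, Psmb5 and Psma1 (top) and of the immunoproteasome genes Psmb9, Psmb10, Psmb8 and Psme1 (bottom) in the 4 groups, each axis starting at 0; squares are arrays of cluster 1, circles those of cluster 2, and bars give the mean ± SD. The day-5 arrays of Psmb10 and Psme1 separate by cluster, and those of Psmb9 and Psmb6 do not.

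All 4 immunoproteasome genes lay higher at day 5 than in unirradiated hosts, with differences of 0.22 to 0.56, and none passed the test. Psmb9, which takes the place of Psmb6, had signals of 538, 663, 376 and 401 in unirradiated hosts and of 595 to 802 with a median of 673 at day 5. Only unirradiated array 2 reached into the day-5 range, and the difference was 0.50 (adjusted p = 0.177 in limma), or 0.49 with the cluster term. At day 40 Psmb9 had 518, 446, 494 and 599, and at day 115 453, 640.1 and 459, all within the range of unirradiated hosts.

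Psmb8, the replacement of Psmb5, had signals of 1576, 2146, 1246 and 1161 in unirradiated hosts and of 1328 to 2151 with a median of 1799 at day 5. These overlapped across almost their whole range, with a difference of 0.22 (adjusted p = 0.554 in limma). Its signals were 1359, 1379, 1254 and 1297 at day 40 and 1359.9, 1165 and 1250.0 at day 115. Every day-115 array lay within the range of unirradiated hosts.

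Psmb10, the replacement of Psmb7, split by array cluster at day 5, with 1771, 1600.4 and 1538 in cluster 1 and 740.2 to 1121 in cluster 2. Unirradiated arrays had 688, 926, 749 and 723, so that 2 of the 5 day-5 arrays of cluster 2 lay above all of them. The difference of 0.56 (adjusted p = 0.331 in limma) became 0.27 with the cluster term. At day 40 the signals were 1265 and 1036 in cluster 1 and 669 and 761 in cluster 2, and at day 115 996, 1663 and 1021.

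Psme1, the alpha chain of PA28, split in the same way. Its day-5 signals were 1371, 1048 and 1413 in cluster 1 and 509.5 to 669 in cluster 2, and unirradiated hosts had 566, 798, 452 and 435. The day-5 difference of 0.52 (adjusted p = 0.415 in limma) was 0.16 with the cluster term. At day 115 Psme1 had 825, 1022 and 773, for a difference of 0.65 (adjusted p = 0.172). Within cluster 1, Psmb9, Psmb10 and Psme1 lay lower on both day-40 arrays than on all 3 day-5 arrays, 3 of 4 genes against 15% of all tested probe sets. Their differences were -0.59, -0.51 and -0.52 on the log2 scale, and none was called (adjusted p = 0.567, 0.693 and 0.652 in limma). Within cluster 2 the day-40 and day-5 arrays of these 3 genes overlapped, with differences of -0.28, -0.35 and -0.16. Psmb8 overlapped in cluster 1 (-0.10). In cluster 2 it lay lower on both day-40 arrays (-0.58, adjusted p = 0.143 in limma), as did 10.2% of all tested probe sets.

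The immunoproteasome genes can be set beside the subunits they replace by their day-5 differences from unirradiated hosts. Psmb6 and Psmb9 differed by 0.52 and 0.50, Psmb7 and Psmb10 by 0.18 and 0.56, and Psmb5 and Psmb8 by 0.86 and 0.22. With the cluster term these were 0.43 and 0.49, 0.51 and 0.27, and 0.75 and 0.29. No difference between the genes of a pair was tested.

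The ATPases of the 19S cap form the ring that unfolds substrates, and Psmc6 had the largest difference of all proteasome genes at day 115. Its signals were 1048, 1154, 869 and 971 in unirradiated hosts and 213, 159.5 and 136 at day 115, with no overlap. Psmc6 fell by 2.48 ± 0.54 (adjusted p = 0.00470 in limma), or 5.59-fold. At day 5 the arrays of cluster 1 had 395, 395 and 369.6, and those of cluster 2 had 1029 to 1336. At day 40 the signals were 165 and 479 in cluster 1 and 902 and 976 in cluster 2.

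The day-5 arrays of Psmc6 thus split by cluster without overlap, as did the day-40 arrays. From day 5 to day 115 it fell by 2.14 ± 0.48 over all arrays (adjusted p = 0.00803 in limma), and with the cluster term it fell by 1.12 ± 0.24 (adjusted p = 0.00540). Within cluster 1 the difference was -1.14 ± 0.32, with all 3 day-115 arrays below all 3 day-5 arrays (adjusted p = 0.0991). Against unirradiated hosts with the term it was -0.86 ± 0.29 (adjusted p = 0.0977).

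Psmc2, a second ATPase low in cluster 1, differed at day 115 by -1.54 (adjusted p = 0.0564 in limma) and by 0.26 with the cluster term. It had 274 to 336 on the day-5 arrays of cluster 1 and 1122 to 1783 on those of cluster 2. Within cluster 2 all 5 day-5 arrays lay above the unirradiated arrays, which had 875 to 1051, for a difference of 0.49 (adjusted p = 0.133).

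Psmc5 had low signals, of 94.8, 90.2, 71.1 and 71.8 in unirradiated hosts. At day 5 its 5 arrays of cluster 2 had 101 to 166, all above the unirradiated arrays, and its 3 of cluster 1 had 83.9, 87.7 and 104. At day 40 the signals were 80.3, 92.9, 106 and 132, and at day 115 71.6, 66.5 and 84.9. From day 5 to day 115 it fell by 0.54 ± 0.17 (adjusted p = 0.0434 in limma), a call that was lost without any array of cluster 2 at day 5 or any day-115 array (up to 0.159).

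Psmc3 rose at day 115. Its signals were 149, 214, 146 and 132 in unirradiated hosts, 191 to 281 at day 5, 265, 273, 206 and 245 at day 40, and 284, 399 and 238 at day 115. All day-115 arrays lay above all unirradiated arrays, by 0.86 ± 0.20 (adjusted p = 0.00616 in limma), and by 0.83 ± 0.24 with the cluster term (adjusted p = 0.0549). Of the other tested probe sets of the gene, 1 rose by 1.15 (adjusted p = 0.00298) and 1 differed by -0.36 (adjusted p = 0.206). The suffix of the brightest probe set and of the one at -0.36 marks possible cross-hybridisation. Since the 3 also did not share a direction, the direction for the gene is uncertain. Psmc1 was not called in any comparison.

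Among the non-ATPase genes of the cap, Psmd4 and Psmd7 had the largest differences at day 115. Psmd4, a receptor for ubiquitin chains, had 285, 305, 243 and 230.0 in unirradiated hosts and 629, 1173 and 604 at day 115. The rise was 1.48 ± 0.38 (adjusted p = 0.0103 in limma), and 0.48 with the cluster term (adjusted p = 0.321). At day 5 its arrays of cluster 1 had 826, 530.2 and 471 and those of cluster 2 had 279.5 to 424, and at day 40 they had 769 and 775 against 283 and 329. The high arrays at each time were thus those of cluster 1.

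Psmd7, a partner of the deubiquitinase Psmd14 in the lid of the cap, had 179, 248, 195 and 182 in unirradiated hosts and 439.7, 425 and 382 at day 115. It rose by 1.00 ± 0.23 (adjusted p = 0.00558 in limma), and the difference with the cluster term was 0.61 ± 0.23 (adjusted p = 0.134). At day 40 it had 435, 285, 229.8 and 229. Day-5 array 1, at 447, was the highest of all 19. Psmd3, a lid subunit, had 186, 135, 171 and 176 in unirradiated hosts and 243, 306 and 249 at day 115, a rise of 0.62 ± 0.18 (adjusted p = 0.0192) that was 0.21 with the term.

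Psmd6, another lid subunit, was low at day 115, with 105, 121 and 73.5, below every array of day 5 (168 to 316) and of unirradiated hosts (205, 201, 142 and 151). Against day 5 it fell by 1.18 ± 0.23 (adjusted p = 0.00370 in limma), and it fell by 0.92 ± 0.23 with the cluster term (adjusted p = 0.0131). Within cluster 1 the difference was -0.92 ± 0.28 with no overlap (adjusted p = 0.116). At day 40 its 4 arrays were widely spread, at 95.8, 232, 171 and 247. Against unirradiated hosts it fell by 0.73 ± 0.26 (adjusted p = 0.0455).

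Psmd11, a lid subunit, had 356, 476, 286 and 235 in unirradiated hosts, 209, 242, 153 and 162 at day 40, and 221, 170.2 and 170.1 at day 115. At day 115 it fell by 0.77 ± 0.23 (adjusted p = 0.0199 in limma). Within cluster 2 at day 40, against unirradiated hosts, it fell by 0.99 ± 0.22 (adjusted p = 0.0319), the 1 gene of 40 called there against 3.07% of all tested probe sets. For the 2 other tested probe sets of the gene, that day-40 difference within cluster 2 was -0.02 and 0.08. At day 115 they differed by -0.38 (adjusted p = 0.170) and 0.07, so they shared neither call. From day 5 to day 115, the former of these fell by 0.62 (adjusted p = 0.0316), a call lost without any day-115 array or day-5 array 4, 5 or 7 (up to 0.0951).

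Psmd8 split by cluster, with 353, 306 and 322 on the day-5 arrays of cluster 1 and 129 to 178 on those of cluster 2. At day 40 it had 211 and 259.9 in cluster 1 and 87.8 and 107 in cluster 2, and at day 115 186, 223 and 199.9. Within each cluster both day-40 arrays lay below all day-5 arrays. Against day 5, the fit with the cluster term gave -0.52 ± 0.11 at day 40 and -0.68 ± 0.13 at day 115 (adjusted p = 0.00647 and 0.00394 in limma). Its fit on groups alone gave 0.63 for day 5 against unirradiated hosts, and the term reduced this to 0.24.

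Psmd9 had 148 to 208 at day 5 and 117, 157 and 148 at day 115, which overlapped. It fell by 0.42 when the cluster was a term (adjusted p = 0.0324 in limma), and its probe set carries a suffix of uncertain specificity. The other Psmd genes, Psmd1, Psmd2, Psmd5, Psmd10, Psmd12, Psmd13 and Psmd14, had no call in any comparison on groups alone or with the term. Their day-5 and unirradiated arrays overlapped.

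The activators outside PA28 alpha and beta lay lower at day 5 than in unirradiated hosts, though the Psme3 difference was 0.05 with the cluster term. Psme3, the subunit of nuclear PA28 gamma, had signals of 152, 120.4, 166 and 136 in unirradiated hosts and 55.0, 51.4 and 42.2 at day 115. It fell by 1.28 ± 0.42 (adjusted p = 0.0323 in limma). Its day-5 arrays of cluster 1 had 56.9, 45.7 and 41.8 and those of cluster 2 had 128 to 183, and at day 40 the values were 55.9 and 42.1 against 149 and 131. When the cluster was a term the day-115 difference turned to 0.058 (adjusted p = 0.866). Psme4, the PA200 activator, had 159, 176, 155 and 206 in unirradiated hosts and 102 to 187 at day 5, and differed by -0.45, or -0.30 with the term, without passing.

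Psme3ip1, which encodes a protein that binds Psme3, had 214, 292, 253 and 262 in unirradiated hosts, 388, 388, 327 and 333 at day 40 and 402, 391 and 313 at day 115. Both later groups lay above all unirradiated arrays. The rise at day 115 was 0.50 ± 0.18 (adjusted p = 0.0405 in limma), and the difference at day 40 was 0.47. With the cluster term these were 0.23 and 0.33, and neither passed.

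The same fit gave the other genes of the pathway. Of 13 tested genes of proteasome assembly and associated factors, 6 lay higher at day 5 with a median of -0.03, and 0 passed. At day 115, where 12.8% of all tested probe sets fell and 15.1% rose, all 13 lay lower and 3 fell: Zfand5, a protein that binds the proteasome (-1.60, adjusted p = 0.0111 in limma), Nfe2l2, the stress factor NRF2 (-1.24, adjusted p = 0.0120), and Usp14, a deubiquitinase of the cap (-0.82, adjusted p = 0.0434). Of 11 genes of ubiquitin supply and delivery, 3 lay higher at day 5 and 0 passed, and at day 115 4 fell and 1 rose, against the same shares of all tested probe sets. Those that fell were the conjugating enzymes Ube2d3 (-2.23, adjusted p = 0.00861) and Ube2d2a (-1.52, adjusted p = 0.0221) and the shuttle factors Ubqln2 (-1.10, adjusted p = 0.0369) and Rad23b (-0.73, adjusted p = 0.0315). Usp5, named after its value was seen, rose by 0.56 (adjusted p = 0.0324). Adding the cluster term left 0 genes of either list past the threshold at day 115.

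Class I antigen processing uses the peptides that the proteasome makes. None of its 9 tested genes passed at day 5, where 3 lay higher. The heavy chains H2-K1 (0.57, adjusted p = 0.0197 in limma) and H2-D1 (0.72, adjusted p = 0.0223) rose at day 40, 2 of 9 against 1.5% of all tested probe sets called. The probe sets of both may share sequence with other class I genes by name. At day 115, 3 rose and 3 fell, where 27.9% of all tested probe sets were called, among them the peptide transporter Tap1 (1.26, adjusted p = 0.0115), its partner tapasin, Tapbp (-1.41, adjusted p = 0.00322), the light chain B2m (-0.94, adjusted p = 0.0255) and the chaperone Canx (-0.84, adjusted p = 0.00471). With the term 0 passed at day 115, where 4.42% of all tested probe sets did. At day 40, 2 passed with the term, where 157 of 8695 tested probe sets rose and 37 fell. Of 17 interferon-stimulated genes, 0 passed at day 5 and at day 40, and 3 rose and 5 fell at day 115, against 15.1% and 12.8% of all tested probe sets. Among the 8 were Gbp3 (-1.39, adjusted p = 0.0317 in limma), Irf7 (1.06, adjusted p = 0.00885), Ifi47 (-1.05, adjusted p = 0.00559) and Usp18 (0.98, adjusted p = 0.0468). When the cluster was a term, 1 of 17 was called at day 115, Isg15 (-0.82, adjusted p = 0.0411), and it fell.

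Genes of cell division stood higher at day 5, beside the proteasome genes. All 16 tested lay higher, with a median of 0.71, and 4 rose, where 0.794% of all tested probe sets were called. The 4 were Stmn1 (1.94, adjusted p = 0.0271 in limma), Top2a (1.84, adjusted p = 0.0348), Cdk1 (1.41, adjusted p = 0.0254) and Ccnb2 (1.03, adjusted p = 0.0211). Their part in the proteasome result was not tested. By day 40 the median of the list was -0.03 and 0 of 16 passed. At day 115 the median was -0.07, and 3 genes rose and 2 fell, against 27.9% of all tested probe sets called. Mcm5 (1.26, adjusted p = 0.0139 in limma), Mcm7 (1.11, adjusted p = 0.00674) and Mcm2 (0.83, adjusted p = 0.0164), of the replicative helicase, rose. Pcna, the sliding clamp of DNA replication (-1.43, adjusted p = 0.0108), and Plk1, named after its value was seen (-0.70, adjusted p = 0.00530), fell. Adding the cluster term left 0 of 16 called at day 115.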

How the data were processed

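Each array gave a signal intensity per probe set, as deposited by the authors on a linear scale. The steps from scan to intensity were not given in the sources used here. Members, gene lists and motifs were chosen with earlier results of these data known. Probe sets were named through a platform annotation: of 12422 probe sets other than 66 controls, 10833 had 1 symbol, 396 several and 1193 none.

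With limma 3.58.1 (R 4.3.3), 1 linear model of log2(signal + 16) was fitted to the 19 arrays, with a mean per group and a variance trend (15 residual degrees of freedom). The 8695 probe sets with a mean above the 30th percentile (26.4) were tested, p-values were adjusted over all of them by Benjamini-Hochberg, and an adjusted p under 0.05 was called. A gene was counted by its brightest tested probe set. The fit was tested on simulated data with independent noise and no array clusters, so that test does not bear on the cluster split. Array clusters came from average linkage on 1 minus Pearson's r, cut in 2. Genes described in full were the immunoproteasome genes and the subunits they replace, every gene called on groups or with the cluster term, and the 2 largest differences per class against unirradiated hosts. Of the other lists, up to 4 called genes with the largest changes were named. The alternatives were another pseudocount, filter, normalisation or variance moderation, the cluster term, a block by replicate number, fits within a cluster or on 2 groups, and leaving out each array. Promoters are RefSeq windows, found for 36 of 42 members. The number of arrays limits the precision.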

Additional observations from a re-analysis of the deposited data

Results flagged for a closer look

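In 9 of 132 groups of 4 or more arrays, 1 array of a proteasome gene lay far from the rest of its group, where chance gives about 1 in 20. Day-5 array 1 was high for Psmb1 (a signal of 694), Psmb2 (1198), Psmb3 (1789), Psmd4 (826) and Psmd7 (447). Day-40 array 2 was high for Psmb1 (819), and day-40 array 4 for Psmc1 (196). Unirradiated array 2 was high for Psmb2 (267), and day-5 array 4 was high for Psme4 (187).

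The change from unirradiated hosts was lower at day 115 than at day 5 for 6 genes when that difference was tested in limma, which is the comparison of day 115 with day 5. The difference on the log2 scale was -1.23 for Psma1, -0.62 for Psma5, -0.86 for Psmb7, -0.54 for Psmc5, -2.14 for Psmc6 and -1.18 for Psmd6.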

How the results depend on the processing

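Among the counts of called proteasome genes, the cluster term gave 1 for day 5 against unirradiated hosts, 0 for day 115 against unirradiated hosts and 4 for day 40 against day 5. Fits within cluster 2 gave 2, 1 and 6 for day 5 and day 40 against unirradiated hosts and day 40 against day 5, and the fit within cluster 1 gave 0 for day 115 against day 5. Fitting only the 2 groups compared gave 20 for day 115 against unirradiated hosts and 3 against day 5, and quantile normalisation gave 1 for day 40 against day 5. Leaving out each array gave 3 to 9 and 3 to 11 for day 115 against unirradiated hosts and against day 5, 0 to 1 for day 40 against day 5 and 0 to 2 for day 115 against day 40. The replicate block gave 9, 1 and 13 for day 5, day 40 and day 115 against unirradiated hosts and 0 for day 115 against day 5. Numbers above 4 occur only at day 5, so this block in effect used day-5 arrays 1 to 4, of which arrays 1 to 3 lie in cluster 1. No share of all tested probe sets is given for the 2-group, quantile, leave-out and block fits. An excess over that share cannot be read from their counts. Deviations of same-numbered arrays from their group means had a median r of 0.07 over 21 pairs (8 over 0.1, from -0.67 to 0.76). For day 5 with day 40, r was 0.64, 0.62 and 0.76 for numbers 1, 2 and 4, whose arrays share a cluster. It was -0.67 for number 3, whose arrays do not. The cluster was left in these deviations, so they cannot tell whether the numbers pair the arrays. Psme3 at day 115 against unirradiated hosts turned from -1.28 to 0.058 with the cluster term. The cause was not tested in any of these. Of 60 differences of named genes, the cluster term left 43 on the same side of the threshold, and 14 were no longer called. All 60 stayed on their side with a pseudocount of 1, a filter at the 50th percentile or none, no variance trend or quantile normalisation, and 59 did with a pseudocount of 64. Day 115 against unirradiated hosts could not be fitted within a cluster.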
